A study of Komagataella phaffii GS115 with 9 samples.

Results

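*CTA1* and *PMP20* are the genes of catalase and of the peroxiredoxin of the peroxisome in *P. pastoris* (syn. *Komagataella phaffii*). In the deposited table they are the rows gene-PP7435_CHR2-0137 on chromosome 2 and gene-PP7435_CHR1-1351 on chromosome 1. These names were given with the tags and could not be checked in the files or the reference table. The rule that chose the genes takes their role and locus tag and no measured value, though earlier results of these data were known by then. The genes make up 2 of the 5557 features. RNA was sequenced from cells taken at 60 h of fermentation under methanol induction. For this induction the paper describes BMGY medium, which holds glycerol, and BMMY medium, which holds methanol as the carbon source and the inducer. The groups were the parent induced at 28 °C (Parent_28, the WT), the mutant with cross-tolerance to oxidative and thermal stress induced at 28 °C (G14_28, the robust mutant), and the same mutant induced at 37 °C (G14_37), with 3 libraries each. Both strains carry a lipase gene under the methanol-inducible *AOX1* promoter, and the mutant is a single strain obtained from the parent by adaptive laboratory evolution. No parent library at 37 °C was analysed here, so a comparison of G14_37 with Parent_28 cannot tell strain and temperature apart.

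In methylotrophic yeasts, methanol is oxidised inside peroxisomes by alcohol oxidase, and each turn of this enzyme releases formaldehyde and hydrogen peroxide. Catalase breaks hydrogen peroxide down to water and oxygen. Pmp20 is a peroxiredoxin of the peroxisome, which in the related yeast *Candida boidinii* reduces peroxides with glutathione and is needed for growth on methanol. The enzymes are thus neighbours in the same task, one acting on hydrogen peroxide and the other also on organic peroxides.

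Levels are given as FPKM, the reads of a gene divided by its length and by a library size, so that genes of different length can be compared. Whole reads were recovered from the steps between the values, with 13131111 to 15945465 reads per library. The library size behind the FPKM, which need not equal the read total, was 0.874 to 1.23 times these reads and was largest in G14_37. As a result, the summed FPKM was 707354 to 790873 in G14_37, against 958893 to 1066305 in the other groups. Results that depend on this scaling are also given with the summed reads as library size. Replicate 1 of G14_37 stood apart from the other replicates of its group. Its reads differed from theirs by a chi-square of 48.5 and 49.8 per degree of freedom, while every other pair of replicates lay between 3.84 and 8.55, and results at 37 °C are therefore given with and without it.

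*CTA1* was one of the most abundant messages of the cell in every group. Its level was 9263, 9212 and 9163 FPKM in replicates 1, 2 and 3 of Parent_28, and 9087, 9554 and 9917 FPKM in those of G14_28. In G14_37 it was 5445, 5449 and 5570 FPKM. All libraries at 37 °C were below all libraries at 28 °C, and the deposited levels of the strains at 28 °C overlapped. The group levels were 9213 ± 50.3 FPKM in Parent_28, 9520 ± 416 FPKM in G14_28 and 5488 ± 71.1 FPKM in G14_37 (SD, n = 3 each). By level, *CTA1* had rank 7 or 8 among all features in the libraries at 28 °C, and rank 3 to 6 at 37 °C, so its place in the order did not drop where its FPKM did. The *CTA1* level was 137.4 times that of the median feature in Parent_28, 142.4 times in G14_28 and 82.7 times in G14_37.

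*PMP20* had a higher level per length than *CTA1* at 28 °C. Its level was 12346, 12523 and 12666 FPKM in the Parent_28 replicates, and 13461, 12734 and 11186 FPKM in those of G14_28. In G14_37 it was 8150 FPKM in replicate 1, and 4915 and 5117 FPKM in replicates 2 and 3. Again every library at 37 °C was below every library at 28 °C, but replicate 1 was far above the other libraries at 37 °C. The group levels were 12511 ± 160.1 FPKM in Parent_28, 12460.4 ± 1162 FPKM in G14_28 and 6061 ± 1812 FPKM in G14_37 (SD, n = 3 each). Its rank among all features was 5 in Parent_28, 3 to 6 in G14_28 and 3 to 7 in G14_37.

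**Figure D1:**
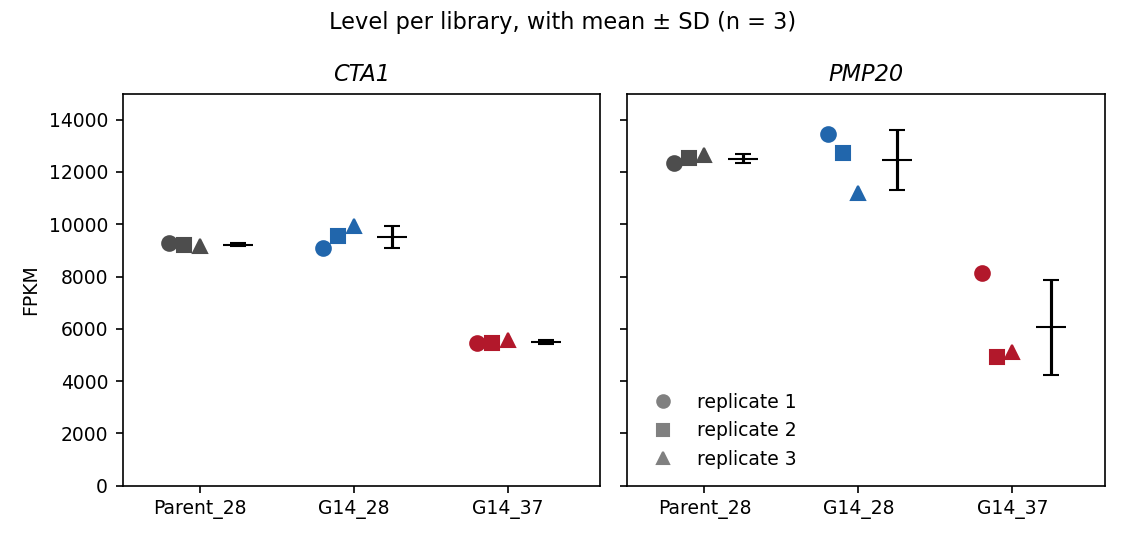
FPKM of *CTA1* (left) and *PMP20* (right) in each of the 9 libraries by group, with symbols for the replicate number and bars for the mean ± SD of 3 libraries. Both genes lie lower in every G14_37 library than at 28 °C, and the *PMP20* level of G14_37 replicate 1, 8150 FPKM, stands above the 4915 and 5117 FPKM of replicates 2 and 3.

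The spread between replicates was larger than counting error in every group, by an amount that differed between groups. With 142952 to 184724 reads per library on *CTA1* and 43150 to 85630 reads on *PMP20*, counting alone gives a coefficient of variation of at most 0.265% and 0.481%. The measured coefficient of variation of *CTA1* was 0.546% in Parent_28, 4.37% in G14_28 and 1.30% in G14_37. That of *PMP20* was 1.28%, 9.33% and 29.9% in the same order, so *PMP20* varied more between replicates in each group. Within G14_28 the genes had opposite orders, as the library with the highest *PMP20* level had the lowest *CTA1* level, and the reverse.

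In G14_37 replicate 1, *PMP20* was 1.62-fold above the mean of the other replicates on the log scale, while *CTA1* differed from that mean by -0.017 on the log2 scale. Of the 5371 features with a mean FPKM of at least 5, 1.27% lay further above in this library. Features of high level also tended to lie above there. Of the 50 with the highest mean FPKM over the 9 libraries, 82% did, with a median log2 difference of 0.25, against 0.70 for *PMP20*. More features were raised there than in any other library: 2.09% of them exceeded 1.5-fold, against at most 0.428% in each of the other 8 libraries. The part of this library in the results for *PMP20* is shown by the values without it.

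The comparison of G14_28 with Parent_28 asks whether the robust mutant carries more message of these defence genes than the WT under methanol at the same temperature. The paper, which made its calls with DESeq2, reports strong upregulation of *CAT* (catalase) and *PMP20* in each of its comparisons, this one included. Here neither *CTA1* nor *PMP20* was called, by an adjusted p-value under 0.05 from limma over all 5448 tested features. Of these features, 66.3% were called (29.6% higher and 36.7% lower in G14_28). The log2 fold change of *CTA1* was 0.046 with a standard error of 0.052 (adjusted p = 0.454 from limma), and its 95% interval allowed from 0.951 to 1.12 times the parental level. That of *PMP20* was -0.010 with a standard error of 0.072 (adjusted p = 0.912 from limma), with an interval from 0.886 to 1.11 times the parental level. The unadjusted p-values from limma were 0.398 for *CTA1* and 0.891 for *PMP20*. With limma-voom on the recovered reads, which scales to the summed reads, *CTA1* was called, with a log2 fold change of 0.097 (adjusted p = 0.044 from limma-voom). That fit called 3644 of the 5448 tested features, 1901 of them higher in G14_28, and it did not call *PMP20*. With limma and the summed reads as library size, the log2 fold change of *CTA1* was 0.098. Its 95% interval was -0.013 to 0.21 (adjusted p = 0.107 from limma). The size thus moved with the scaling, and the call was made by limma-voom alone. On this scale the level of *CTA1* was 8012 to 8124 in Parent_28 and 8176 to 9177 in G14_28. That of *PMP20* was 10827 to 11075 and 10350 to 12112. How many of all features had separate ranges on this scale was not counted. Limma called 3561 of the 5443 features tested on it, 1844 of them higher in G14_28.

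As a share of the summed FPKM of a library, which does not depend on the scaling between libraries, both genes together took 2.05 ± 0.020% in Parent_28, 2.22 ± 0.023% in G14_28 and 1.55 ± 0.14% in G14_37 (SD, n = 3 each). The highest share was 2.06% in Parent_28 and the lowest 2.201% in G14_28, so these groups did not overlap in the share of the sum. By gene, the share of *CTA1* was 0.863 to 0.875% in Parent_28 and 0.906 to 1.03% in G14_28, without overlap, while that of *PMP20* was 1.16 to 1.19% and 1.17 to 1.34%, with overlap. Of the 5448 tested features, 41.8% had a higher share in G14_28 without overlap. The summed FPKM itself was lower in G14_28, between 958893 and 1003485, than in Parent_28, between 1052930 and 1066305. The share was looked at after the levels had been seen, and it was not tested.

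The comparison of G14_37 with G14_28 shows both genes lower at the higher temperature in the same strain. *CTA1* fell 1.73-fold, with a log2 fold change of -0.79 and a standard error of 0.12 (adjusted p = 3.9e-04 from limma). *PMP20* fell 2.11-fold, with a log2 fold change of -1.08 and a standard error of 0.21 (adjusted p = 0.0020 from limma). Both genes were thus called lower, 2 of 2, where 36.2% of the 5459 tested features were called lower, and their groups did not overlap, where 38.4% of the features were lower without overlap. With an absolute log2 fold change above 1 as a further criterion, 1 of the 2 genes was called, *PMP20*, against a background of 7.05% of features lower. The median log2 fold change of all tested features was -0.025, and 10.8% of the features had a lower log2 fold change than *CTA1*, and 6.05% a lower one than *PMP20*.

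Without G14_37 replicate 1, the log2 fold change of *PMP20* was -1.31 (adjusted p = 1.2e-05 from limma), and that of *CTA1* was -0.79 as before (adjusted p = 7.4e-05 from limma). The mean level of *PMP20* in the remaining libraries was 5016 FPKM, and the level in G14_28 was 2.48 times as high. Without G14_37 replicate 2 or 3, *PMP20* had log2 fold changes of -0.94 and -0.97 and no longer passed the criterion of 1, while its adjusted p stayed under the threshold.

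The size of the fall depended on the scaling between libraries. With the summed reads as library size, the log2 fold change was -0.40 for *CTA1* (adjusted p = 0.0029 from limma) and -0.68 for *PMP20* (adjusted p = 0.0047 from limma), so both were still called lower and neither passed a log2 fold change of 1. This scaling moved the median of all tested features from -0.025 to 0.36. Relative to that median, the log2 fold changes were -0.76 for *CTA1* and -1.04 for *PMP20*, and under the deposited scaling they were -0.77 and -1.05. The calls of all features moved from 1810 higher and 1977 lower to 3397 higher and 887 lower, and 16.3% of the tested features were then called lower. On this scale the level of *CTA1* was 8078 ± 58.7 in Parent_28, 8653 ± 502 in G14_28 and 6565 ± 256 in G14_37 (SD, n = 3 each). That of *PMP20* was 10971 ± 129, 11311 ± 892 and 7202 ± 1892 in the same order (SD, n = 3 each). Of all recovered reads, *CTA1* took 1.24 ± 0.0090% in Parent_28, 1.33 ± 0.077% in G14_28 and 1.01 ± 0.039% in G14_37, and *PMP20* took 0.563 ± 0.0066%, 0.580 ± 0.046% and 0.369 ± 0.097% (SD, n = 3 each). The values are relative to the other messages of a library, so an amount per cell cannot be read from them.

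The comparison of G14_37 with Parent_28 gave values close to those within the mutant, which shares the G14_37 libraries with it. *CTA1* had a log2 fold change of -0.75 with a standard error of 0.10 (adjusted p = 2.3e-04 from limma). *PMP20* had a log2 fold change of -1.09 with a standard error of 0.20 (adjusted p = 0.0012 from limma). Both were called lower, where 39.1% of the 5451 tested features were called lower, and *PMP20* also passed a log2 fold change of 1 in size, as did 8.48% of the features on the lower side. Their groups did not overlap, and 40.9% of the tested features were lower without overlap. Without G14_37 replicate 1, the values were -0.74 for *CTA1* (adjusted p = 2.6e-06 from limma) and -1.32 for *PMP20* (adjusted p = 2.0e-07 from limma). With the summed reads as library size, they were -0.30 (adjusted p = 0.0066 from limma) and -0.64 (adjusted p = 0.0045 from limma), with a median that moved from -0.033 to 0.41 over all tested features, and *PMP20* no longer passed a size of 1. Nor did it without G14_37 replicate 2 or 3, where its log2 fold changes were -0.95 and -0.98. With the summed reads, the calls of all features moved from 1805 higher and 2134 lower to 3525 higher and 951 lower, and 17.5% of the tested features were then called lower. By level, the order of the groups was thus G14_37 below the others for both genes, while Parent_28 and G14_28 overlapped in the deposited FPKM of both genes.

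**Figure D2:**
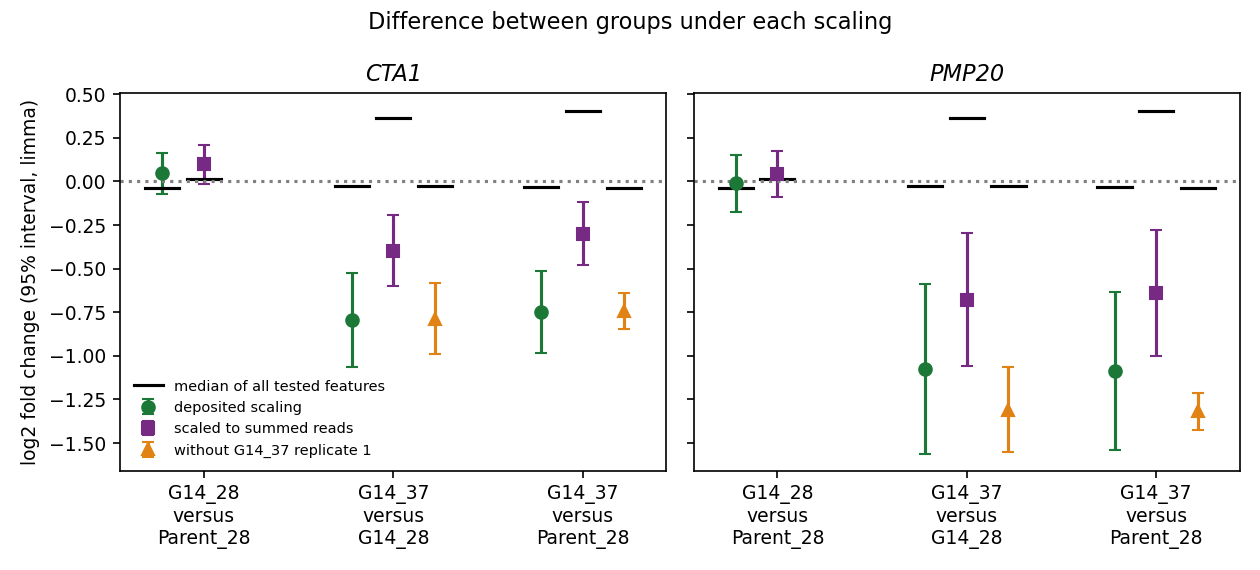
Log2 fold change of *CTA1* (left) and *PMP20* (right) in each comparison with its 95% interval from limma, under the deposited scaling (circles), with the summed reads as library size (squares) and without G14_37 replicate 1 (triangles); black bars give the median of all tested features. Between the strains at 28 °C the intervals under both scalings include 0, and in the comparisons with G14_37 the values lie between -1.32 and -0.30, while the median moves to 0.36 and 0.41 with the summed reads.

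The ratio of *PMP20* to *CTA1* within a library is free of the scaling between libraries. It was 1.33, 1.36 and 1.38 in the replicates of Parent_28, and 1.48, 1.33 and 1.13 in those of G14_28. In G14_37 it was 1.497 in replicate 1, and 0.902 and 0.919 in replicates 2 and 3. *CTA1* was therefore the more abundant message per length in 2 of the 9 libraries, both at 37 °C, and *PMP20* was in the other 7. The mean log2 ratio was 0.44 ± 0.026 in Parent_28, 0.39 ± 0.20 in G14_28 and 0.10 ± 0.41 in G14_37 (SD, n = 3 each).

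None of the 3 differences in this ratio passed the exact permutation test, and in each the groups overlapped. The mean log2 ratio changed by -0.056 from Parent_28 to G14_28 (two-sided exact permutation p = 0.8, adjusted over 3 comparisons 0.8). It changed by -0.28 from G14_28 to G14_37 (exact permutation p = 0.4, adjusted 0.6), and by -0.34 from Parent_28 to G14_37 (exact permutation p = 0.4, adjusted 0.6). The smallest p that 3 libraries against 3 allow is 0.1, so this design could not have passed a threshold of 0.05. Without G14_37 replicate 1, the differences to G14_28 and Parent_28 were -0.52 and -0.58, with no overlap of the groups, and each gave the smallest p possible with 2 libraries against 3, which is 0.2.

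**Figure D3:**
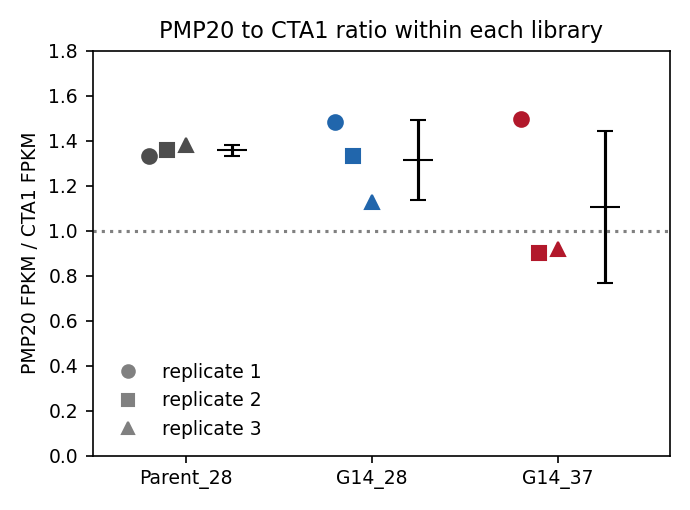
Ratio of the *PMP20* FPKM to the *CTA1* FPKM within each of the 9 libraries by group, with symbols for the replicate number, bars for the mean ± SD of 3 libraries and a dotted line at equal levels. Replicates 2 and 3 of G14_37 lie below the line, at 0.902 and 0.919, and replicate 1 lies at 1.497, above the libraries at 28 °C.

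Many other features of high level were also lower at 37 °C, and how many depended on the libraries that ranked them. Of the 50 features with the highest mean FPKM over all 9 libraries, a set taken after the values had been seen and which includes both genes, 40 were called lower and 4 higher in G14_37 than in G14_28, with a median log2 fold change of -1.08. As 6 of these 9 libraries are from 28 °C, this ranking itself favours features that are lower at 37 °C. With equal weight to G14_28 and G14_37 the values were close to these, with 38 called lower, 5 higher and a median of -1.06. Ranking by the mean of the G14_37 libraries favours features that are higher at 37 °C. By that mean, 27 of the 50 highest features were called lower and 12 higher, with a median of -0.34. Ranked by the mean of the G14_28 libraries, 44 were lower and 2 higher, with a median of -1.25. By the mean over 9 libraries, 32 of the 50 had a lower log2 fold change than *CTA1* and 25 a lower one than *PMP20*. These counts were 31 and 23 with equal weight, 37 and 29 by the mean of G14_28, and 18 and 11 by the mean of G14_37. The place of the genes among the highest features is therefore not fixed. With the summed reads as library size, 35 of the features ranked over 9 libraries were called lower and 7 higher, with a median of -0.69, and without G14_37 replicate 1, 43 were lower and 5 higher. The 10 features with the highest levels in each library held 11.6 to 12.1% of the summed FPKM at 28 °C and 8.54 to 10.8% at 37 °C.

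**Figure D4:**
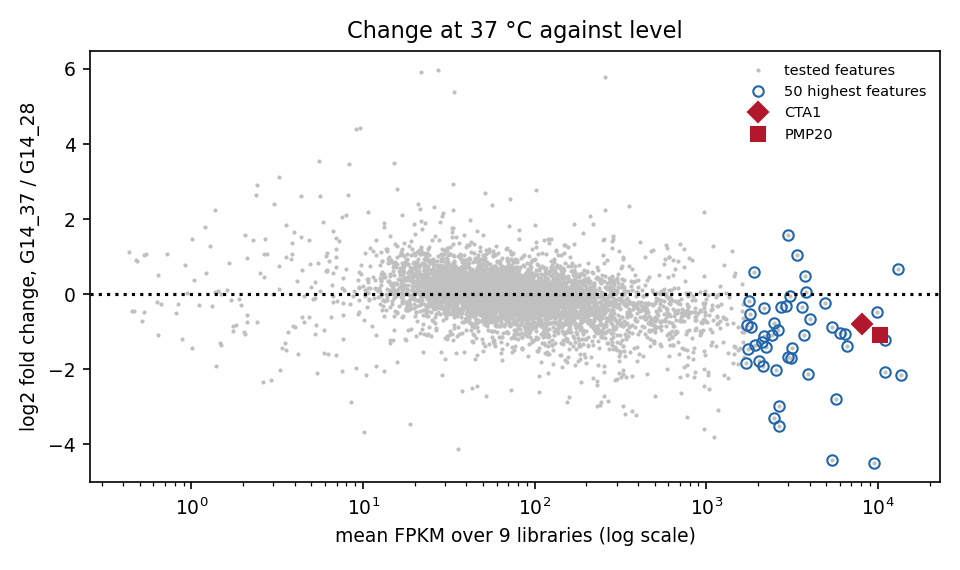
Log2 fold change between G14_37 and G14_28 against the mean FPKM over 9 libraries (log scale) for all tested features (grey), the 50 features with the highest mean (open circles), *CTA1* (diamond) and *PMP20* (square). *CTA1* lies at -0.79 and *PMP20* at -1.08, and the 50 features have a median of -1.08. The median is -1.06 when the 50 are ranked with equal weight to G14_28 and G14_37, and -0.34 when ranked by the G14_37 libraries.

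The features whose pattern over the 9 libraries was most like that of each gene were taken by the Pearson correlation of log2(FPKM + 1), among 5369 other features with a mean FPKM of at least 5. All points come from the same 9 libraries and their depth, and the correlation is given as a description. For *CTA1* the most alike was PP7435_CHR1-0742 (r = 0.998), with 972 ± 9.33 FPKM in Parent_28, 1065 ± 44.4 FPKM in G14_28 and 289 ± 24.3 FPKM in G14_37 (SD, n = 3 each). Its log2 fold change was -1.88 between G14_37 and G14_28, and -1.49 with the summed reads as library size. For *PMP20* it was PP7435_CHR3-2238 (r = 0.996), with 172 ± 2.80 FPKM, 168 ± 8.42 FPKM and 92.1 ± 18.4 FPKM in the same groups (SD, n = 3 each). Its log2 fold change between G14_37 and G14_28 was -0.87, and -0.48 with the summed reads as library size. Among the libraries at 37 °C it had 113 FPKM in replicate 1, against 80.08 and 83.02 FPKM. These features were chosen for their likeness over the same libraries, so their changes are given with no test. The files give no gene names for these tags.

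In all, 870 features had a correlation above 0.9 with *CTA1* and 574 with *PMP20*, and the correlation between *CTA1* and *PMP20* was 0.911. Without G14_37 replicate 1, that correlation was 0.9748, and 833 and 891 features lay above 0.9. Over these 8 libraries PP7435_CHR1-0742 had rank 2 in likeness to *CTA1*, and PP7435_CHR3-2238 had rank 5 in likeness to *PMP20*.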

How the data were processed

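RNA-seq values of 9 libraries were analysed. The members, lists and alternatives were chosen with earlier results of these data known. The submitters' processing notes name CASAVA, HISAT2 2.0.5 and featureCounts 1.5.0-p3. The genome build and annotation version are not given in the sources used here. The authors deposited FPKM, a unit inferred from the values. The names *CTA1* and *PMP20* were given with the tags and could not be checked here. The reference table of strain GS115 shares 0 locus tags with the file, so genes of the methanol and antioxidant pathways could not be matched by name and were not analysed here.

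Reads and lengths were recovered for all 5516 features with any value above 0. Every value lay within 1.1e-04 of a whole read. Of the recovered lengths, 98.2% were multiples of 3, as coding lengths are, with 1533 bases for *CTA1* and 513 for *PMP20*. They were not checked against an annotation.

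The 2 groups compared were fitted on log2(FPKM + 1) by limma 3.58.1 (lmFit, then eBayes allowing for a trend with level; R 4.3.3). Features entered a fit if their mean reached 1 FPKM in either group. The Benjamini-Hochberg adjustment ran over every feature of a fit, and an adjusted p under 0.05 was called. Fold changes on this scale understate those of low genes. The fit and the recovery were tested on simulated data. The simulation for the fit drew on G14_28 and Parent_28 alone, with values scaled to read totals and no library set apart. It therefore did not cover the library sizes of G14_37 or its replicate 1. The named features were both genes and the single most alike feature of each. Tables, exact tests and figures were made in Python 3.11.15 with scipy 1.17.1, pandas 2.3.3, matplotlib 3.10.9 and numpy 2.4.6. The closing section gives the alternatives. The 50 highest features, their other rankings, the shares of the summed FPKM compared between strains, and the values of these and the alike features with other scaling or without G14_37 replicate 1, were added after seeing the data. The biological replicates carry numbers shared between groups, and the main fit has no block. Read-based errors cover counting only.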

Additional observations from a re-analysis of the deposited data

How the results depend on the processing

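Every level was refitted with 8 other settings and with each replicate left out in turn. The settings were adding 0.1 in place of 1 before the logarithm, keeping low features, centring on medians, using the summed reads as library size, adding the replicate number as a block, fitting the 3 groups jointly, dropping the trend with level, and limma-voom on recovered reads. In both comparisons with G14_37, *CTA1* and *PMP20* stayed lower with an adjusted p under 0.05 in every one of them. For G14_37 against G14_28, leaving out one replicate gave log2 fold changes of -0.83 to -0.76 for *CTA1* and -1.31 to -0.94 for *PMP20*, and for G14_37 against Parent_28, -0.76 to -0.74 and -1.32 to -0.95. Between the strains at 28 °C, limma-voom gave *CTA1* a log2 fold change of 0.097 that passed the threshold, and adjusted p ranged from 0.044 to 0.648 over the 8 settings. The sign of *PMP20* turned to 0.041 both with the summed reads and with limma-voom, where neither passed. Leaving out one replicate gave 0.016 to 0.079 for *CTA1* and -0.068 to 0.066 for *PMP20*, and without G14_28 replicate 3 the *PMP20* to *CTA1* log2 ratio turned from -0.056 to 0.049 within a range of -0.15 to 0.049. The number of called features stayed within 1.5 times in all settings, while its split into higher and lower moved with the scaling. A list of named pathway genes was planned and not run, as no table used here pairs their names with these locus tags.

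With the replicate number as a block, adjusted p was 0.549 for *CTA1* and 0.921 for *PMP20* between the strains, 0.0031 and 0.0020 between the temperatures, and 0.0026 and 0.0027 for G14_37 against Parent_28, and no call changed. Deviations of same-numbered libraries correlated across features with r of -0.060 to 0.0096 between the strains, -0.21 to 0.25 between the temperatures, and 0.052 to 0.17 for G14_37 against Parent_28, where 1, 3 and 5 of 6 libraries correlated best with their own number.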

Other observations

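Features numbered next to *CTA1* and *PMP20* were also looked at. Of the 5 tested features before and the 5 after each gene in the order of locus tags, which was not checked against coordinates, the 10 next to *CTA1* had a median log2 fold change of 0.31 between G14_37 and G14_28, and 0 of them had a lower value than *CTA1*. The 10 next to *PMP20* had a median of -0.13 and ranged from -1.44 to 1.30, and 1 of them had a lower value than *PMP20*. Of all tested features, 10.8% had a lower value than *CTA1* and 6.05% a lower one than *PMP20*, so these counts of 10 are near those shares. For G14_37 against Parent_28, 2 of the 10 were lower than *CTA1* and 1 of the 10 lower than *PMP20*, against 14.3% and 6.99% of all tested features. The mean FPKM of the neighbours was 23.3 to 1392 next to *CTA1* and 26.5 to 378 next to *PMP20*, far below that of the genes themselves. Between the strains at 28 °C, the features next to *CTA1* had a median of -0.28, with 6 of 10 called lower and 1 higher, and those next to *PMP20* a median of 0.13, with 2 called lower and 5 higher, against a median of -0.037 over all tested features, of which 36.7% were called lower and 29.6% higher.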
